A study of Homo sapiens with 6 samples.

Results

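The miR-148 and miR-152 family was followed in small RNA libraries of LX-2 cells with both arms of its 3 precursors, miR-148a, miR-148b and miR-152. Its 6 members were found by name in the deposited tables of tag counts, and each distinct sequence was counted once. Of the 6, 5 were listed among the 463 distinct sequences of the tables and 3, the 3p arms, were abundant enough to be among the 182 sequences tested. miR-148b-5p was not listed in any library. LX-2 is an immortalized line of human hepatic stellate cells, the collagen-producing cells of the fibrotic liver, so that all 6 libraries came from 1 line.

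In the co-culture group (3 libraries), TGF-β1-activated LX-2 cells in the lower chamber were grown for 48 h below HUC-MSCs, mesenchymal stem cells of the human umbilical cord, from which a porous membrane separated them. In the single culture group (3 libraries), activated LX-2 cells were grown without HUC-MSCs. TGF-β1, the growth factor that drives stellate cells to a fibrogenic state, was used in both groups, at 10 ng/mL for 24 h according to the sample records, while the methods of the study give 48 h. The sequencing asked which miRNAs of LX-2 cells differed after co-culture.

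A miRNA gene is transcribed as a hairpin that Drosha and Dicer cut to a short duplex, and one strand of the duplex, the guide, is kept by an Argonaute protein while the other, the passenger, is mostly degraded. Either the arm at the 5′ end of the hairpin (5p) or the one at its 3′ end (3p) can be the guide. The guide finds its target mRNAs mainly through its seed, bases 2 to 8. The 3p arms of this family share 1 seed and are known for targeting DNMT1, the maintenance DNA methyltransferase, and miR-148a is among the abundant miRNAs of the healthy liver.

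The mature sequences are shown because the seed, in capitals, was the same in the 3p arms and different in the 5p arms. The first 5 were read from the deposited table and miR-148b-5p from RefSeq (GRCh38.p14). RefSeq's table of mature miRNAs matched 5 of the 6 members, all but miR-148a-5p.
miR-148a-3p: uCAGUGCAcuacagaacuuugu
miR-148b-3p: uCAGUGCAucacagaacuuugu
miR-152-3p: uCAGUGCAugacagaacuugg
miR-148a-5p: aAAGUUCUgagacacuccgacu
miR-152-5p: aGGUUCUGugauacacuccgacu
miR-148b-5p: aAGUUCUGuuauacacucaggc

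The 3p arms were nearly one sequence. With positions counted from 1 at the 5′ end and the first-named arm's base given first, miR-148a-3p and miR-148b-3p matched at 20 of 22 positions and differed by C9U and U10C. miR-148a-3p and miR-152-3p matched at 18 of 21 positions and differed by C9U, U10G and U20G. miR-148b-3p and miR-152-3p matched at 19 of 21 and differed by C10G and U20G. All differences lay outside the seed. Among the mature human miRNAs of the RefSeq table, the seed CAGUGCA was found only in these 3. In the tables, 0 other sequences carried it and 0 overlapped a member by 16 or more exact bases, so no end variant of a member was listed. A single other sequence, named by the authors as a putative miRNA of chromosome 3, shared bases 2 to 7 with the 3p arms and had 4 tags in 1 library.

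The 5p arms differed from each other more than the 3p arms did, and their seeds were AAGUUCU in miR-148a-5p, AGUUCUG in miR-148b-5p and GGUUCUG in miR-152-5p. miR-148a-5p begins 1 base earlier relative to the shared stretch. After a shift by 1 base, miR-148a-5p matched miR-148b-5p at 13 of 21 positions and miR-152-5p at 15 of 22, and miR-148b-5p matched miR-152-5p at 18 of 22 without a shift.

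The hairpins, from RefSeq, are shown with both mature arms in capitals, 5p first, so that the position of the scarce arm can be seen beside that of the abundant one.
MIR148A: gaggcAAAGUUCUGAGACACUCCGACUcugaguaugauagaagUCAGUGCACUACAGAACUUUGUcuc
MIR148B: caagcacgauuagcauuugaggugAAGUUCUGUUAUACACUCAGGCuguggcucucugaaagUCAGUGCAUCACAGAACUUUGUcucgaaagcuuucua
MIR152: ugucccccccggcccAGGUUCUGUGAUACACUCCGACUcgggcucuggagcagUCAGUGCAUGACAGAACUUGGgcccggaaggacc

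On GRCh38, MIR148A lies at chr7:25949919-25949986 on the minus strand, and no GENCODE gene on the same strand contains it. MIR148B lies at chr12:54337216-54337314 on the plus strand, inside COPZ1 and outside its exons. MIR152 lies at chr17:48037161-48037247 on the minus strand, inside COPZ2 and outside its exons. COPZ1 and COPZ2 are paralogs that encode zeta subunits of the COPI vesicle coat. The predicted folds (RNAfold) had minimum free energies of -27.9 kcal/mol for MIR148A, -31.2 kcal/mol for MIR148B and -47.2 kcal/mol for MIR152. All 3p arms begin with U and all 5p arms with A. In each predicted hairpin the first 4 bases of the 3p arm formed 2 G-C pairs and 2 A-U or G-U pairs, and those of the 5p arm 1 G-C pair and 3 A-U or G-U pairs, so the 3 precursors did not differ in these features.

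The libraries held 325037, 604418 and 421964 tags in co-culture, against 209043, 43956 and 47528 tags in single culture. miR-21-5p, summed with an author-named sequence of chromosome 17 that has the same start, took 75.0% to 81.2% of the tags in co-culture and 37.1% to 56.4% in single culture. The author-named sequence held most of these tags in every library. Libraries 2 and 3 of single culture stood apart: they were the shallowest, 23.4% and 25.7% of their tags were 17 to 20 nt long (2.12% to 7.56% in the other 4 libraries), and library 1 of single culture correlated better with the co-culture libraries (r = 0.970 to 0.981 over 182 sequences on the log2 scale) than with them (r = 0.932 and 0.914). A blank in the tables means fewer than 2 tags. Over all 182 tested sequences, edgeR's quasi-likelihood test called 8 at an adjusted p under 0.05, 4 higher and 4 lower in co-culture, which is 4.40% of those tested. Of the hepatocyte, blood, endothelial and epithelial marker miRNAs looked up, 1 of 7 was listed, endothelial miR-126-3p, at 178 to 230 CPM in co-culture and 124 to 174 CPM in single culture, while miR-122-5p of hepatocytes, miR-142-3p, miR-142-5p and miR-223-3p of blood cells and miR-141-3p and miR-200c-3p of epithelia were unlisted. Of the mesenchymal markers, 3 of 4 were listed, with a summed level of 836 to 930 CPM in co-culture and 806 to 2977 CPM in single culture, and miR-214-3p was unlisted. Nearly all of this sum was miR-143-3p (means of 860 CPM in co-culture and 2058 CPM in single culture). Over all 6 libraries, miR-145-5p had only 16 tags and miR-199a-3p only 10. LX-2 cells and HUC-MSCs are both human mesenchymal cells, no HUC-MSC library was analysed here, and RNA of the 2 kinds of cell was not told apart.

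All 3 of the 3p arms were readily detected in every library, and none passed the test between the groups. Their log2 fold changes, co-culture over single culture, were between -0.30 and -0.12. edgeR called 0 of 3, beside 4.40% of all tested sequences. DESeq2 and limma on the authors' normalized values also called 0 of 3, beside 22 and 18 of all 182 in that order. At an unadjusted p under 0.05, edgeR had 1 of the 3, miR-152-3p, against 46 of all 182. In bulk RNA, a smaller number of cells of one kind and less of a miRNA per cell cannot be told apart. Levels are given as CPM, the tag count over the library size after TMM scaling, which sets the libraries level on the bulk of their sequences.

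miR-148a-3p, the most abundant member, was counted with 260, 423 and 327 tags in co-culture, against 367, 82 and 74 tags in single culture. Scaled, these were 1007, 1126 and 1159 CPM in co-culture and 1208, 1271 and 1096 CPM in single culture. The groups overlapped, as the lowest single culture library lay below both of the higher co-culture libraries. The means were 1098 ± 80.1 CPM in co-culture and 1192 ± 88.4 CPM in single culture (SD, n = 3 each). The log2 fold change was -0.12 (SE 0.12, 95% interval -0.40 to 0.16, edgeR adjusted p = 0.565). By mean level it ranked 32 in co-culture and 38 in single culture among the 463 sequences.

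miR-148b-3p had 206, 282 and 263 tags in co-culture, against 257, 69 and 79 tags in single culture. These were 798, 751 and 932 CPM in co-culture and 846, 1069 and 1170 CPM in single culture. Again the groups overlapped, through library 1 of single culture, which lay below library 3 of co-culture, while libraries 2 and 3 of single culture were the highest of the 6. The log2 fold change was -0.30 (SE 0.16, 95% interval -0.69 to 0.09, edgeR adjusted p = 0.297), between means of 827 ± 94.3 CPM in co-culture and 1028 ± 166 CPM in single culture (SD, n = 3 each). Without libraries 2 and 3 of single culture the log2 fold change was -0.04 (edgeR adjusted p = 0.955, a fit of 3 libraries against 1, in which the lone library is assumed to vary like those of co-culture), while leaving out library 1 of that group gave -0.46 (edgeR adjusted p = 0.0469).

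miR-152-3p, the least abundant of the 3p arms, had 157, 241 and 161 tags in co-culture, against 225, 50 and 48 tags in single culture. The scaled values of 608, 642 and 571 CPM in co-culture all lay below those of single culture, at 741, 775 and 711 CPM. It was the only 1 of the 3 members tested whose groups did not overlap, a pattern that 29 of the 182 tested sequences (15.9%) also showed in the same direction. With means of 607 ± 35.4 CPM in co-culture and 742 ± 31.9 CPM in single culture (SD, n = 3 each), the log2 fold change was -0.29 (SE 0.11, 95% interval -0.55 to -0.03). The unadjusted edgeR p was 0.0350 and the adjusted p 0.155, and with a minimum of 50 counts in place of 10, which left 96 sequences in the test, the edgeR adjusted p was 0.0478 for a log2 fold change of -0.36. Without libraries 2 and 3 of single culture the log2 fold change was -0.29 (edgeR adjusted p = 0.311, again with 1 single culture library and the spread of co-culture alone).

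**Figure D1:**
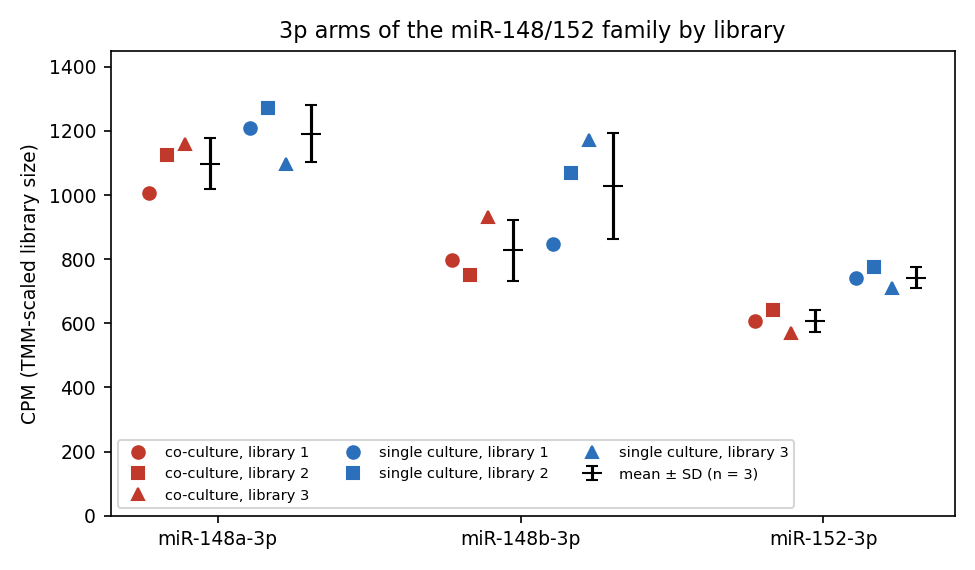
Level of each 3p arm in CPM (TMM-scaled library size, linear axis from 0) in each co-culture library (red) and single culture library (blue), with the group mean and SD (n = 3) as black bars. The groups overlap for miR-148a-3p and miR-148b-3p, and for miR-152-3p the co-culture libraries, at 571 to 642 CPM, lie below the single culture libraries, at 711 to 775 CPM.

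The size of these values depended on how the libraries were scaled. Without scaling for composition, with library size alone, miR-148a-3p stood at 799.9, 699.8 and 774.9 CPM in co-culture and at 1756, 1866 and 1557 CPM in single culture. On that scale the 3 log2 fold changes were -1.19 for miR-148a-3p, -1.36 for miR-148b-3p and -1.35 for miR-152-3p, all past the threshold (edgeR adjusted p = 0.00157, 0.00206 and 0.00146), but the median of all 182 tested sequences was -1.11 there and 140 were called, against a median of -0.04 under TMM. Relative to the median of all tested sequences, the members stood at -0.08, -0.25 and -0.24 with library size alone and at -0.08, -0.26 and -0.25 under TMM. A change of scaling moves all log2 fold changes by nearly the same amount, which the subtraction removes. The near match was thus fixed in advance. On the authors' normalized values (limma, median of all tested -0.37), the members stood at -0.12, -0.30 and -0.29 relative to the median. With TMM computed without the miR-21-5p sequences, whose share of all tags moved with the groups, the log2 fold changes were -0.08, -0.27 and -0.26 (edgeR adjusted p = 0.717, 0.374 and 0.192). The family's 3p tags made up 0.192%, 0.157% and 0.178% of all tags in co-culture and 0.406%, 0.457% and 0.423% in single culture, without overlap. With library size alone, 139 of all 182 tested sequences were called lower in co-culture, the 3 arms among them. As a share of the tags outside the miR-21-5p sequences, the family's 3p tags made up 0.768%, 0.830% and 0.945% in co-culture and 0.931%, 0.759% and 0.672% in single culture, with overlap.

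**Figure D2:**
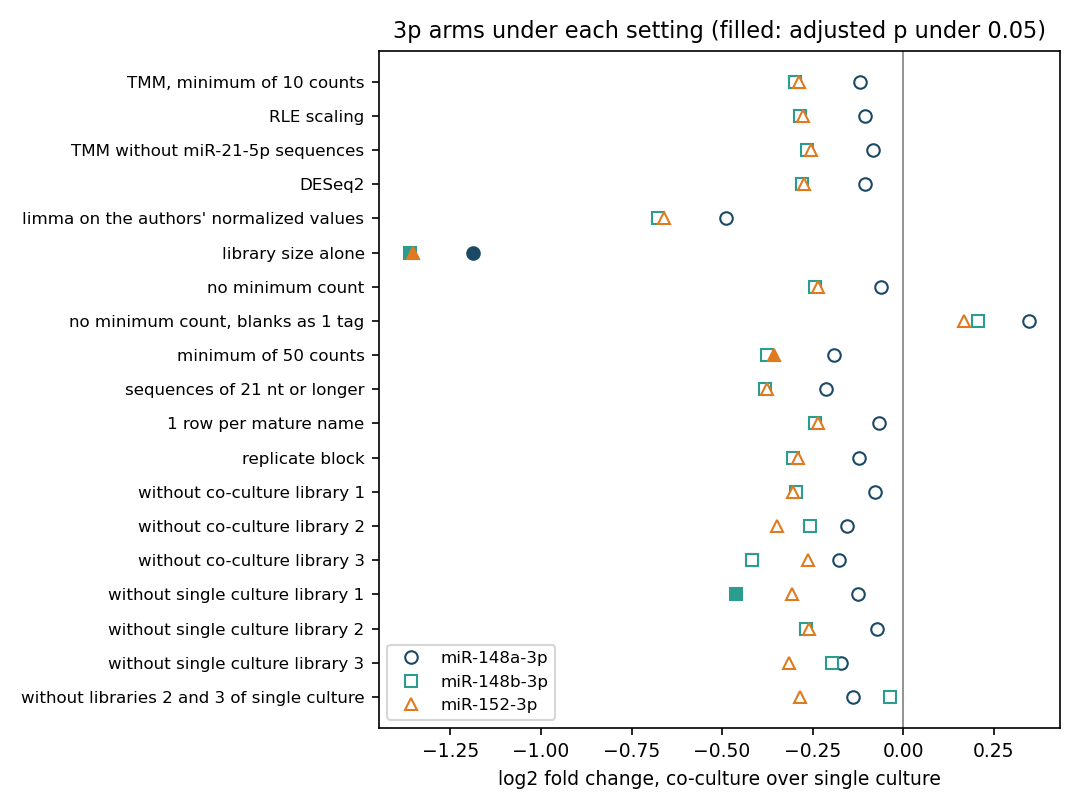
Log2 fold change, co-culture over single culture, of the 3 tested 3p arms under each way of processing the counts, with filled symbols for an adjusted p under 0.05. In the top row (TMM, minimum of 10 counts) all 3 lie between -0.30 and -0.12, with library size alone between -1.36 and -1.19, and with each blank of the tables set to 1 tag all 3 lie above 0.

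The make-up of the family's 3p pool does not depend on the scaling, since it is counted within each library. In co-culture, miR-148a-3p held 41.7%, 44.7% and 43.5% of the 3p tags, miR-148b-3p 33.1%, 29.8% and 35.0%, and miR-152-3p 25.2%, 25.5% and 21.4%. In single culture, miR-148a-3p held 43.2%, 40.8% and 36.8%, miR-148b-3p 30.3%, 34.3% and 39.3%, and miR-152-3p 26.5%, 24.9% and 23.9%. The ranges of the groups overlapped for each of the 3. The order miR-148a-3p, miR-148b-3p, miR-152-3p held in every library but library 3 of single culture, where miR-148b-3p had 79 tags and miR-148a-3p 74. Pooled, miR-148a-3p made up 43.5% of the family's 3p tags in co-culture (exact Clopper-Pearson 95% interval 41.5% to 45.6%, 2320 tags) and 41.8% in single culture (39.1% to 44.6%, 1251 tags). miR-148b-3p made up 32.4% in both groups, and miR-152-3p 24.1% in co-culture and 25.8% in single culture. These intervals, and those of the arm shares, cover counting error only, as the tags carry no molecular identifiers.

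**Figure D3:**
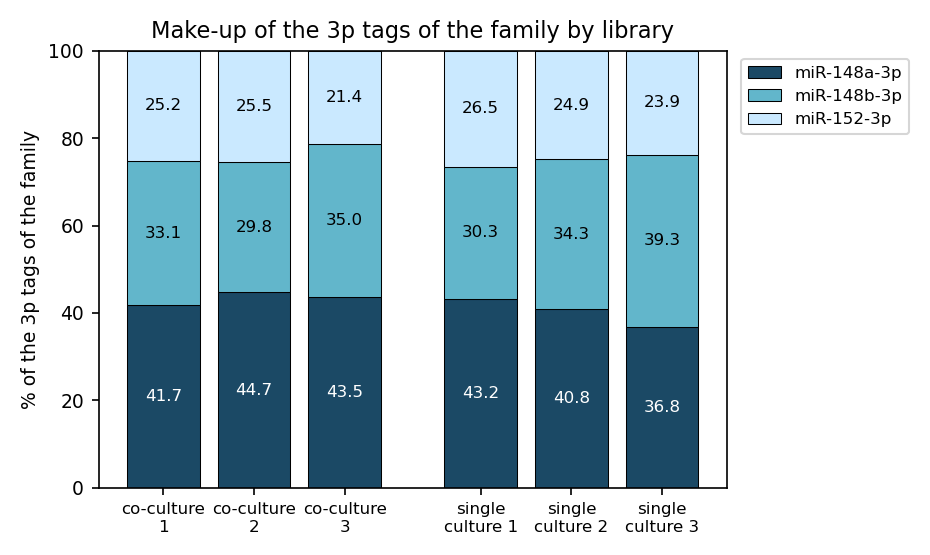
Share of each 3p arm among the 3p tags of the family, in percent, in each co-culture library (left) and each single culture library (right). miR-148a-3p holds the largest share in all libraries but library 3 of single culture, where it holds 36.8% and miR-148b-3p 39.3%.

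The 5p arms were scarce in both groups, and fell below the minimum of 10 counts in 3 libraries. miR-148a-5p, the arm that the study took further, had 3, 2 and 3 tags in co-culture, that is 11.6, 5.32 and 10.6 CPM, and was blank in all 3 single culture libraries. As a blank can hold 1 tag, the single culture levels may be up to 3.29, 15.5 and 14.8 CPM, so that only library 1 of single culture was deep enough to lie below each co-culture library. In a fit without a minimum count, edgeR gave a log2 fold change of 4.11 (adjusted p = 0.515), which became 0.60 (adjusted p = 0.870) with each blank as 1 tag. DESeq2 without a minimum count gave 2.51, and edgeR with library size alone 3.88. The sign was positive in all 4. In the 3 fits that read a blank as 0, the blanks of single culture fixed that sign in advance. In the fit with each blank as 1 tag, the 3p arms also moved above 0, miR-148a-3p to 0.35. The size moved with the tool and with the reading of a blank and is no bound on the fold. With 8 tags in all, a difference in miR-148a-5p was not detectable by these fits at this depth. The study itself named miR-148a-5p as the miRNA raised most significantly by co-culture in this sequencing. It called miRNAs at a fold change over 1.5 and P under 0.05 and mentioned no adjustment. The p-values given here for miR-148a-5p were adjusted over all sequences, so the thresholds differ. The study's separate qRT-PCR of co-cultured LX-2 cells also gave a rise.

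miR-152-5p was the more abundant of the listed 5p arms, with 6, 4 and 5 tags in co-culture, against 10, a blank and 4 tags in single culture. These were 23.2, 10.6 and 17.7 CPM in co-culture and 32.9 and 59.2 CPM in the single culture libraries 1 and 3. Both listed single culture libraries lay above all co-culture libraries, and the blank of library 2 allows up to 15.5 CPM. Without a minimum count, edgeR gave a log2 fold change of -0.86 (adjusted p = 0.629). Opposite signs for miR-148a-5p and miR-152-5p thus came from counts of 10 or fewer, and the difference between the 2 was not tested.

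Within each precursor, the 3p arm was the major arm in every library. For miR-148a, the 5p arm held 1.14%, 0.471% and 0.909% of the tags of both arms in the co-culture libraries. The exact 95% intervals of these shares reached from 0.0570% at the lowest to 3.30% at the highest. Pooled, 8 of 1018 tags in co-culture were 5p (0.786%, 0.340% to 1.54%), against 0 of 523 in single culture. With each blank of single culture read as 1 tag, the share would be 3 of 526 (0.570%) and its upper limit 1.66%, which is above the co-culture estimate. The arm share of miR-148a could thus not be told apart between the groups at this depth. The ratio of miR-148a-3p to miR-148a-5p was 126 in co-culture.

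For miR-152, the 5p arm held 3.68%, 1.63% and 3.01% in co-culture, against 4.26%, a blank and 7.69% in single culture. Pooled, the share was 2.61% in co-culture (15 of 574 tags, 1.47% to 4.27%) and 4.15% in single culture (14 of 337 tags, 2.29% to 6.87%). The intervals overlapped. Per 5p tag there were 37.3 tags of miR-152-3p in co-culture and 23.1 in single culture.

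For miR-148b, no tag of the 5p arm was listed beside 1156 tags of the 3p arm. Had each of the 6 blanks held 1 tag, the share would be 0.516% with an upper limit of 1.12%. That limit is 1.16% in co-culture (754 tags) and 2.13% in single culture (408 tags).

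Between the precursors, the 5p share was larger for miR-152 than for miR-148a. Its 5p share was above that of miR-148a in all 5 libraries that list one of these arms, and both were blank in library 2 of single culture. Over all 6 libraries, the share was 3.18% for miR-152 (29 of 911 tags, 2.14% to 4.54%) and 0.519% for miR-148a (8 of 1541 tags, 0.224% to 1.02%), and these pooled intervals did not overlap. Within single libraries, the intervals overlapped in every co-culture library and in library 3 of single culture. They did not in library 1 of single culture. No test was run on the difference in share. The pooled share of miR-152 also lay above the upper limit of 1.12% for miR-148b. The 5p arms of miR-152 and miR-148a are 23 and 22 nt long, and whether length bears on the share was not tested.

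**Figure D4:**
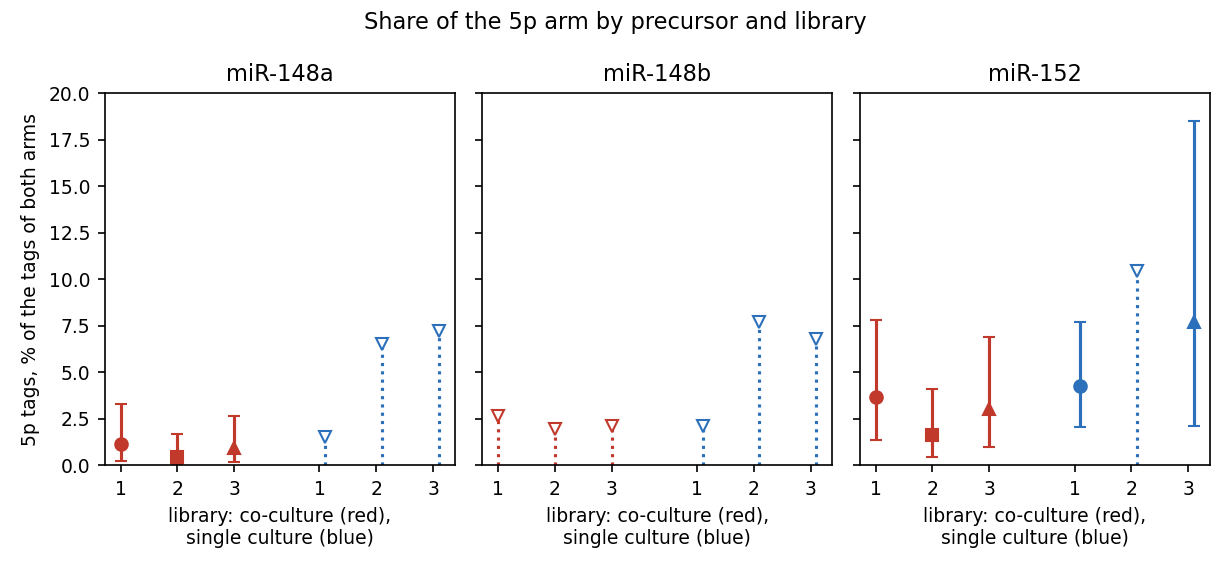
Share of the 5p arm among the tags of both arms of each precursor, in percent, by library (co-culture red, single culture blue), with exact 95% intervals. Open triangles mark libraries with a blank 5p arm and stand at the upper limit that a count of 1 allows, and the filled points of miR-152 (1.63% to 7.69%) lie above those of miR-148a (0.471% to 1.14%).

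Of 244 precursor names with a listed arm, 69 had both arms listed and 175 only 1, counting annotated names only. Arms were matched by name. Arms whose names differ by a locus number, such as miR-125b-5p and miR-125b-1-3p, were thus counted as separate names with 1 listed arm. The count of 175 is therefore too high for precursors. The median share of the minor arm over the 69 was 5.63% of both arms, and it ranged from 0.0234% for let-7g to 49.5% for miR-493. miR-148a stood at rank 9 from the lowest, between let-7a (0.480%) and miR-93 (0.522%). miR-152 stood at rank 25, between miR-671 (2.67%) and miR-30d (3.60%). Both lay below the median of the 69. Among the 44 of them with at least 100 tags, the median was 2.70%, and miR-148a (rank 9) lay below it and miR-152 (rank 23) above it. miR-148b was among the 18 precursor names with 1 listed arm that had at least as many tags as miR-148b-3p itself. Of the precursor names with at least 1000 tags, 15 had both arms listed and 19 had 1. A partner not listed under the same name was thus common at this abundance.

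The 3p arm was the major arm in 32 of the 69 precursors and the 5p arm in 37. The major arm differed between the groups in 6 of the 69, none of them of this family. The U at the start of the family's major arms was found in 32 of the 69 major arms, and A in 16.

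**Figure D5:**
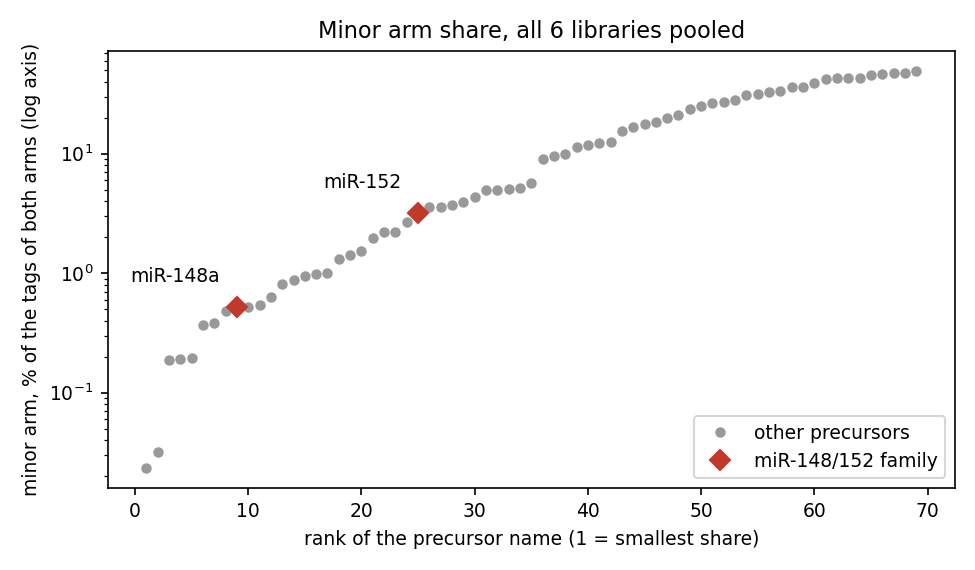
Share of the minor arm in percent of the tags of both arms (log axis), all 6 libraries pooled, for the 69 precursor names with both arms listed, ordered by that share. The red diamonds are miR-148a at rank 9 (0.519%) and miR-152 at rank 25 (3.18%), and the grey points are the other precursors.

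The 3p arms did not vary closely with each other over the 6 libraries, with Pearson's r of the log2 CPM of 0.60 for miR-148a-3p and miR-152-3p, 0.47 for miR-148b-3p and miR-152-3p, and 0.32 for miR-148a-3p and miR-148b-3p. Among 141 known miRNAs, the closest to miR-148a-3p was miR-30c-2-3p (r = 0.883), followed by miR-370-3p (0.805) and miR-615-3p (0.802). The closest to miR-148b-3p were miR-184 (0.938), miR-7-5p (0.934) and miR-134-5p (0.913), and to miR-152-3p they were miR-27b-3p (0.940), miR-98-5p (0.925) and miR-548o-3p (0.918). The 3 sets of closest miRNAs held no name in common. Some of these miRNAs were scarce, such as miR-30c-2-3p, with means of 33.4 CPM in co-culture and 51.9 CPM in single culture. miR-184 averaged 42.0 and 100 CPM in that order, and 2 tags equal 31.0 CPM in the smallest library. Others were abundant, such as miR-27b-3p with 5429 and 7699 CPM. All these correlations share the libraries, their depth and their scaling, and are given as a description.

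Other miRNAs known to target DNA methyltransferases or the histone methyltransferase EZH2 were looked up beside the family. Of 9 on this list, 7 were tested, and 4 had positive and 3 negative log2 fold changes. edgeR and DESeq2 called 0 of the 7, beside 8 (edgeR) and 22 (DESeq2) of all 182 tested sequences. Their median log2 fold change was 0.15, against -0.04 for all tested sequences. miR-29a-3p, which targets DNMT3A and DNMT3B, averaged 1239 ± 81.5 CPM in co-culture and 946 ± 158 CPM in single culture (SD, n = 3 each), with a log2 fold change of 0.37 (edgeR adjusted p = 0.177). It was the only 1 of the 7 at an unadjusted p under 0.05, beside 46 of all 182. miR-101-3p, which targets EZH2, and miR-126-3p, which targets DNMT1, had log2 fold changes of 0.37 and 0.33 (edgeR adjusted p = 0.200 and 0.401).

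Of 14 miRNAs known to target genes of the Notch pathway, the pathway that the study linked to miR-148a-5p, 8 were tested, 6 with positive and 2 with negative log2 fold changes and a median of 0.30. edgeR and DESeq2 called 0 of the 8, beside the same 8 and 22 of 182. At an unadjusted p under 0.05, edgeR had 2 of the 8, beside 46 of all 182. miR-146a-5p, which targets NUMB, averaged 914 ± 52.1 CPM in co-culture and 661 ± 56.5 CPM in single culture (SD, n = 3 each), a log2 fold change of 0.47 (SE 0.12, edgeR adjusted p = 0.0609). miR-30a-5p had a log2 fold change of 0.33 (edgeR adjusted p = 0.155) and miR-30d-5p one of 0.28 (edgeR adjusted p = 0.263). With library size alone, 7 of the 7 and 6 of the 8 tested list members were called, as were 140 of all 182 tested sequences.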

How the data were processed

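Small RNA of LX-2 cells was sequenced by the authors on an Illumina platform, and Bowtie 0.12.2 and the builds hg18 and mm8 stand in the submitters' processing notes, with no role given. The authors deposited raw tag counts per mature miRNA, in which the smallest value is 2. The authors also deposited normalized tag counts rounded to whole numbers, a score whose scale is not stated, and their group means as a score. The deposited fold changes and p-values of the authors' own comparison were not used. The columns are numbered and match no sample title, so they were assigned to groups only: the authors' named group means equal the means of these columns in 520 of 520 rows, and those of the other group's columns in 14 (relative tolerance 1e-05). Columns without a group numbered 0. The study states that experiments were repeated, but not whether the libraries of a group came from separate cultures, so each p-value covers only the spread among the 6 libraries, which may be technical.

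The 520 rows were merged to 463 sequences. Sequences with at least 10 counts in any 3 libraries were fitted with edgeR 4.0.16 (R 4.3.3), with TMM factors and p-values adjusted over 182 sequences by Benjamini-Hochberg, and its code was tested on simulated data. A rank test of 3 against 3 libraries cannot go below an exact two-sided p of 0.1. limma 3.58.1 (log2 of the normalized value plus 1) and DESeq2 1.42.0 were alternatives, with other scalings, minimum counts, a replicate block and left-out libraries. Hairpins were folded with RNAfold 2.7.2 and located in GENCODE release 29. In the smallest library, 2 tags equal 31.0 CPM. No pair of libraries was a duplicate (chi-square per degree of freedom within a group 3.46 to 144). Named are the 6 members, sequences sharing a seed or overlapping, the 3 known miRNAs most like each 3p arm, the 3 of smallest p in each list, and the precursors next to the family's in arm share with the highest and lowest. The members and lists were chosen with earlier results of these data known.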

Additional observations from a re-analysis of the deposited data

How the results depend on the processing

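Each 3p arm kept a negative log2 fold change in 17 of 18 alternatives. The exception, added after seeing the data, read every blank as 1 tag with no minimum count and gave 0.35 for miR-148a-3p, 0.21 for miR-148b-3p and 0.17 for miR-152-3p. With library size alone the values were -1.19, -1.36 and -1.35 in that order (edgeR adjusted p = 0.00157, 0.00206 and 0.00146), and 7 and 6 members of the DNA methylation and Notch lists were called. With a minimum of 50 counts miR-152-3p was at -0.36 (edgeR adjusted p = 0.0478). Leaving out each library in turn gave -0.18 to -0.07 for miR-148a-3p, -0.46 to -0.20 for miR-148b-3p and -0.35 to -0.26 for miR-152-3p, and the lowest for miR-148b-3p, without library 1 of single culture, passed the threshold. The 8 calls over all sequences became 140 with library size alone (1 higher, 139 lower), 22 with DESeq2, 37 with no minimum count, 21 with a minimum of 50, 18 with limma on the authors' values and 13 without libraries 2 and 3 of single culture, where 1 library stands against 3 and is assumed to vary like them. Leaving out each library gave 0 to 43 calls: 0 without library 2 or library 3 of co-culture (34 and 33 at an unadjusted p under 0.05), 5 without library 1 of co-culture, 43 without library 1 of single culture, and 2 and 3 without its libraries 2 and 3. With the replicate block there were 0 calls (edgeR, 30 at an unadjusted p under 0.05). The libraries share only a number: deviations of same-numbered libraries correlated at -0.36, -0.11 and -0.21, and no library correlated best with its own number. With no minimum count and library size alone, miR-152-5p was at -1.95 (edgeR adjusted p = 0.0277). The 5p share of miR-148a in single culture was 0.570% with blanks as 1 tag. The share of miR-152-3p in the single culture pool was 24.4% to 26.2%, lowest without library 1, when each library was left out. Adding end forms was not run, as none was listed. The causes of these shifts were not tested. Depth limits the 5p arms, at 10 tags or fewer per library.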
